A study of Mus musculus with 12 samples.

Results

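The 5 genes Thy1, Hap1, Eef1a2, Ndrg4 and Eno2, best known from neurons, were followed in the antral region of the stomach of mice that develop gastric tumors. They were chosen by the measured signal of these arrays, which was higher in 90-day-old tumor-bearing antra than in normal antra, and every probe of each gene was taken, which gave 6 probes of the 46116 on the array and 5 genes of the 8298 that could be named. Each gene had 1 probe, except that Eef1a2 had 2. The RNA of each mouse was hybridised to its own 1-color Illumina Sentrix Mouse-6 array. There were 3 mice in each of 4 groups, all on a C57Bl/6 background. The control group was wild type normal antrum. The other groups were CEA424-SV40 -T antigen transgenic mice aged 30, 60 and 90 days, in which minimal promoter sequence of human CEA drives the SV40 T antigens. The transgene was kept hemizygous, and the labels describe the transgenic samples as tumor together with normal tissue. The labels give the controls an age of 2 to 6 months whereas the study calls them littermates in its text and gives them the age of the oldest transgenic group in a legend, so their age relative to the tumor-bearing mice is uncertain.

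Neuroendocrine cells share much of their secretory and signalling equipment with neurons, and several proteins first described in brain are used as markers of tumors of that lineage. Eno2 encodes neuron-specific enolase, the glycolytic isozyme of neurons and neuroendocrine cells and a serum marker of neuroendocrine tumors. Eef1a2 encodes the form of translation elongation factor 1A that replaces the ubiquitous Eef1a1 product in mature neurons and muscle. Hap1 encodes huntingtin-associated protein 1, which links cargo to microtubule motors and is found in brain and endocrine cells. Ndrg4 encodes a cytoplasmic member of the N-myc downstream-regulated family that is found mainly in brain and heart. Thy1 encodes a small glycosylphosphatidylinositol-anchored surface glycoprotein of neurons, which in the mouse is also carried by T cells and by some fibroblasts. In bulk tissue such as this, more cells of a type and more RNA per cell cannot be told apart.

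The sequence around the annotated transcription starts is shown for those of the genes with an entry in the RefSeq promoter table (GRCm38.p6). Each window is 300 bases long and written 5′ to 3′ on the gene's strand, and 4 of the genes had 8 windows in all. Ndrg4, with 4 annotated starts, is shown for its most upstream and most downstream start, and Hap1 for 1 of its 2 overlapping windows. Thy1 is named only. The capitals mark the letters of 3 motifs that were searched on both strands, the TATA box (TATAAA), the GC box (GGGCGG) and the CCAAT box (CCAAT). Matches were counted anywhere in a window, whatever their distance from the start, and whether any of them acts was not tested.
Hap1, chr11:100356092-100356391, minus strand: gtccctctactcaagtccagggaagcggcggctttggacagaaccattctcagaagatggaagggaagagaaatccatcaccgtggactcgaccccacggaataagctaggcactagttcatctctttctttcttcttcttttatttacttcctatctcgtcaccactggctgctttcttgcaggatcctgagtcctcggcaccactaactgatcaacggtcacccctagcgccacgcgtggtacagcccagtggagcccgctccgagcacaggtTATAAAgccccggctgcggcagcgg
Eno2, chr6:124769624-124769923, minus strand: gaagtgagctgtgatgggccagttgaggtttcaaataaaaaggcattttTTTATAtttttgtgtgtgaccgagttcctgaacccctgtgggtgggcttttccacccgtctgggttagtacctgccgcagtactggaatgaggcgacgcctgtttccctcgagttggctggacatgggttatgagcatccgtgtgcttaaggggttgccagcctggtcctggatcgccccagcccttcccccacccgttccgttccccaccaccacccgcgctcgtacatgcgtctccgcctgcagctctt
Eef1a2, chr2:181156966-181157265, minus strand: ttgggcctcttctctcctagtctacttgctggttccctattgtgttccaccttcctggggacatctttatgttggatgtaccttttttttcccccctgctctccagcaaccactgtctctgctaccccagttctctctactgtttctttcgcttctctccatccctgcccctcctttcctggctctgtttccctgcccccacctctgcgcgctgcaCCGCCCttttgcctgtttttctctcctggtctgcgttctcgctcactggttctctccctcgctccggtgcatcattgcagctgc
Ndrg4 first start, chr8:95676724-95677023, plus strand: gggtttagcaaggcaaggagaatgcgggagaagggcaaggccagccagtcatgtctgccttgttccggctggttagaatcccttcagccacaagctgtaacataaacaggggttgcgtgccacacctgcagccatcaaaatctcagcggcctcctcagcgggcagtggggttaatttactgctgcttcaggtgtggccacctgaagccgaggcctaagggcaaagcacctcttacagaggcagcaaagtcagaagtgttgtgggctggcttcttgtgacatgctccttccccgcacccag
Ndrg4 last start, chr8:95702806-95703105, plus strand: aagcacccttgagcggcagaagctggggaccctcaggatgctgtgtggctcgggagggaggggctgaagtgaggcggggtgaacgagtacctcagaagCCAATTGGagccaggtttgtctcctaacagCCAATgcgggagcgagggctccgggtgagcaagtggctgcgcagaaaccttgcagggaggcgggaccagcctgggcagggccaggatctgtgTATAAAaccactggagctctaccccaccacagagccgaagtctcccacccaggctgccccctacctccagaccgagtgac
TATAAA stood in windows of 3 of the 4 genes and in 4 of the 8 windows, against 13.6% of all 32851 windows of the table. Both Hap1 windows, which overlap and share it, held 1 copy, as did that of Eno2, where it lay on the opposite strand, and the last Ndrg4 window. The Eef1a2 window held 1 GGGCGG, also on the opposite strand, a motif of 35.7% of all windows. The middle Ndrg4 windows, not printed, held 2 and 3 copies of it, and the one with 3 also held 1 CCAAT. The first Ndrg4 window held none of the 3 motifs, whereas the last held 3 copies of CCAAT, of which 2 overlap on opposite strands, against 37.4% of all windows with at least 1. The letters TTCAGCACC and GGACAGC of the RE1 element, through which many neuronal genes are repressed outside the nervous system, were searched too. Neither was found on either strand of the 8 windows, and they stood in 0.371% and 6.56% of all windows.

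At day 90 all 6 probes were brighter than in the controls on every array. Signals are given after background correction and normalization, in arbitrary units of array intensity, where 100 was taken as the limit of a measurable signal. All 6 probes passed the filter, which asked for a signal above 100 on at least 3 arrays, and 5 of them were above it in every group. Since the genes were chosen for this difference, it is a description and carries no test. Of all 22067 probes that passed the filter 17.9% had no overlap between the groups in this direction, and 4.1% were at least 2-fold higher.

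Hap1 had the largest difference. Its signal was 242, 149 and 181 in the 3 controls and 4719, 7105 and 5346 at day 90, a difference of 4.91 ± 0.21 on the log2 scale (SE, 3 against 3 mice), or 30.1-fold. The lowest day 90 array was thus far above the highest control. Thy1 was the most even of the genes among the day 90 mice. Its signal was 276, 193 and 212 in the controls and 5025, 4871 and 4658 at day 90, which was 21.6-fold higher with a log2 difference of 4.43 ± 0.15. By its rank on the array the probe moved from the 84.4th percentile of all probes in the controls to the 99.4th at day 90.

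The main Eef1a2 probe, called probe A here, read 182, 198 and 299 in the controls and 3390.2, 3830.2 and 3413 at day 90. The log2 difference was 4.0 ± 0.19, or 16-fold. The second, probe B, was dim. It read 60.4, 67.8 and 56.6 in the controls and 139, 161 and 161 at day 90. It passed the filter only through the day 90 arrays, so its difference is bounded as at least 1.53-fold against the limit of 100. Both probes had the same direction but gave very different sizes, and the size for Eef1a2 below is that of probe A.

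Eno2 read 200.3, 186 and 149 in the controls and 1102, 1689 and 1542 at day 90, a log2 difference of 3.00 ± 0.19, or 8.02-fold. Day 90 mouse 1 had the lowest value of its group, though still above every control. The same mouse was lowest for Ndrg4, which read 214, 222 and 155 in the controls and 965, 1627 and 1425 at day 90. The log2 difference of Ndrg4 was 2.75 ± 0.22, or 6.71-fold, the smallest apart from Eef1a2 probe B. Day 90 mouse 2 had the highest value of its group for 5 of the 6 probes, with Thy1 as the exception.

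**Figure D1:**
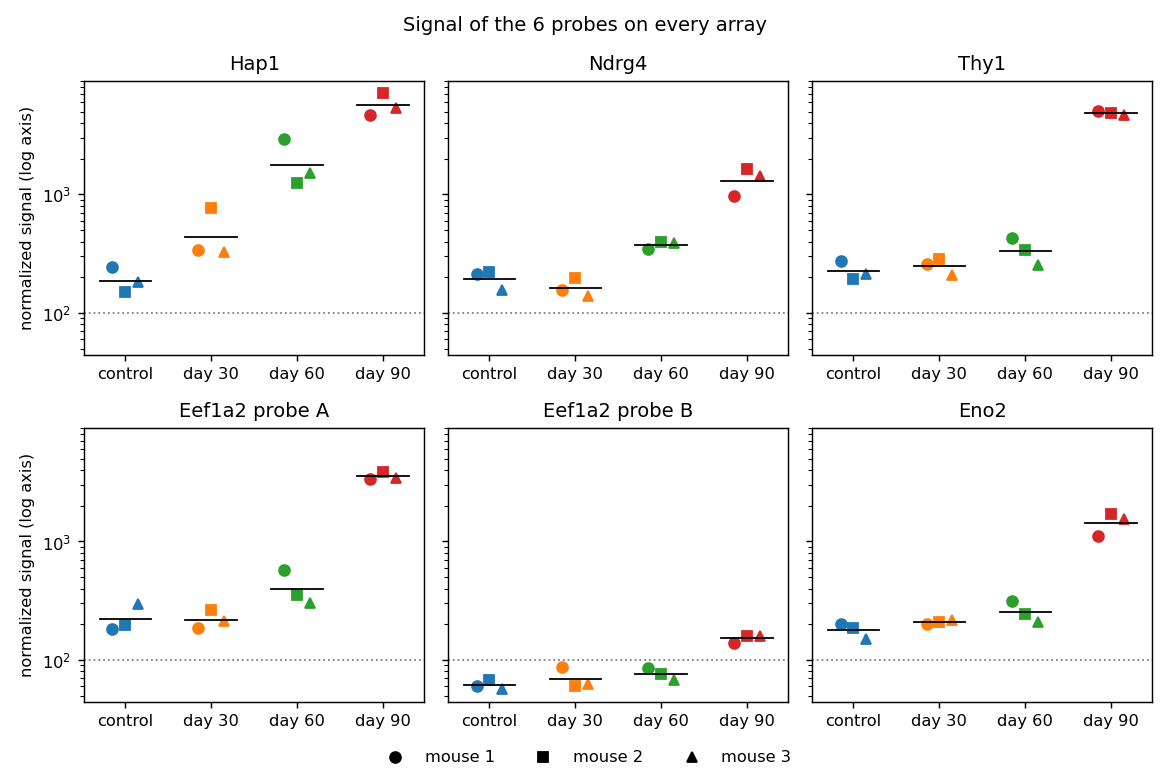
Normalized signal of each of the 6 probes on a log axis, 1 point per mouse with the mouse number as its shape, for control, day 30, day 60 and day 90. Black lines are means of the log2 values of 3 mice and the dotted line is a signal of 100. All 6 probes are highest at day 90, Hap1 is already high at day 60, and Eef1a2 probe B stays under the dotted line except at day 90.

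The genes differed in when their signal departed from the controls. These values share the control or the day 90 arrays with the comparison that chose the genes and are likewise given without a test. Eef1a2 probe B was not above background before day 90. At day 60, 4 of the other 5 probes did not overlap with the controls (11.8% of all tested probes did so in this direction), but only Hap1 was at least 2-fold higher (0.594% of all tested probes). At day 30, 2 of the 5 did not overlap, Hap1 and Eno2 (5.04% of all tested probes), and again only Hap1 was at least 2-fold higher (0.0861%).

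Hap1 was the earliest. Its signal was 336, 767 and 325 at day 30 and 2939.8, 1249 and 1523 at day 60, with log2 differences from the controls of 1.22 ± 0.33 and 3.25 ± 0.30. On the log2 scale, 24.9% of the difference reached at day 90 was present at day 30 and 66.1% at day 60. One mouse stood above the other 2 at each of these ages, mouse 2 at day 30 and mouse 1 at day 60.

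Ndrg4 was second by this measure, with 34.3% of its day 90 difference present at day 60. It read 157, 198 and 139.6 at day 30, within or below the control range, and 344, 396 and 385 at day 60, all above it. The log2 differences from the controls were -0.25 ± 0.19 at day 30 and 0.94 ± 0.16 at day 60.

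Thy1 was the latest by this measure. It read 259, 285 and 207 at day 30 and 427, 341 and 256 at day 60, and both groups overlapped with the controls. Only 13.0% of its day 90 difference was present at day 60, and its signal was 14.5-fold higher at day 90 than at day 60. Eno2 was nearly as late, with 16.9% present at day 60. The day 60 log2 difference from the controls was itself no larger for Eno2, at 0.51 ± 0.18 against 0.58 ± 0.20 for Thy1. Eno2 read 202, 209 and 218 at day 30 and 317, 243 and 209 at day 60. All 6 arrays thus lay above the highest control of 200.3, the lowest of them only just. Eef1a2 probe A had 20.9% present at day 60. Its signal of 187, 263 and 213 at day 30 lay within the control range, and at 574, 351 and 305 the day 60 arrays were above the highest control of 299. The dim probe B read 86.5, 60.4 and 63.0 at day 30 and 84.7, 76.8 and 67.2 at day 60, all not above background. From day 60 to day 90 none of the 6 probes overlapped (16% of all tested probes did not in this direction), and the log2 differences ran from 1.67 for Hap1 to 3.86 for Thy1, with Eef1a2 probe B bounded as at least 1.53-fold.

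**Figure D2:**
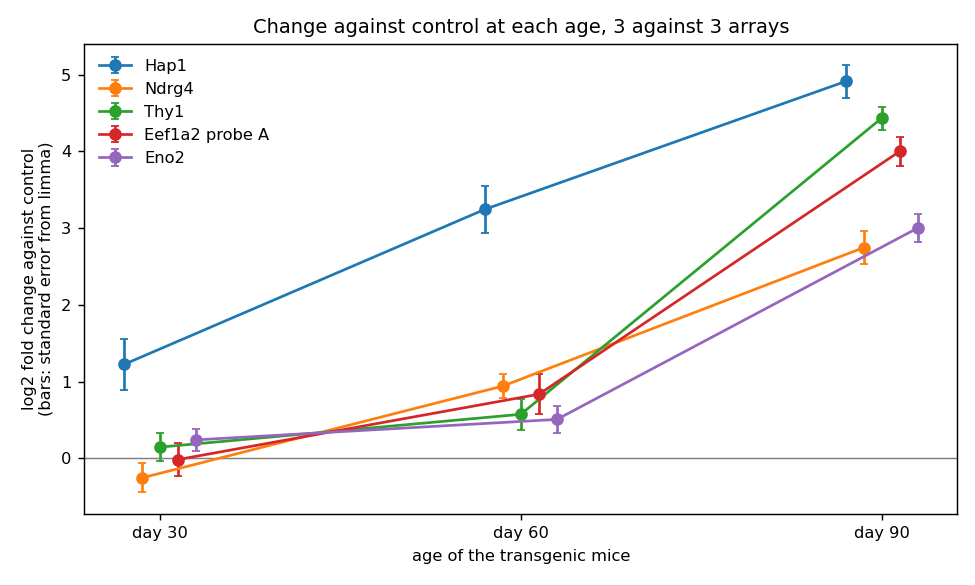
Log2 fold change of the 5 probes that were above background in every group against the controls at day 30, day 60 and day 90, 3 against 3 arrays, with bars for the standard error from limma and points set slightly apart along the age axis. Hap1 is highest at all 3 ages, whereas Thy1 is at 0.58 at day 60 and 4.43 at day 90.

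The comparison of day 60 with day 30 uses no day 90 or control array, and it was tested. The genes were chosen with earlier results of these data known, so this comparison may not be free of that choice. Its question is whether the genes changed over the interval in which the lesions became visible by eye. In limma with Benjamini-Hochberg adjustment over all 22067 probes, 1 of the 6 probes was called higher, or 1 of the 5 that were above background at these ages, where 0.353% of all tested probes were called in this direction. This was Ndrg4, with a log2 difference of 1.20 ± 0.15, or 2.29-fold (adjusted p = 0.0226), and with the 3 day 60 mice above the 3 day 30 mice. The call was not firm, since it was lost when day 30 mouse 3 or any of the 3 day 60 mice was left out (adjusted p from 0.0558 to 0.0933) and in 9 of 17 alternatives in all (adjusted p from 0.00328 to 0.263 over the 17).

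Hap1 had the larger difference, 2.02 ± 0.36 or 4.06-fold, again with no overlap, but it missed the threshold (adjusted p = 0.0542). Without day 30 mouse 2, the one with the high signal, its adjusted p was 0.0171, and over the 17 alternatives it ran from 0.0120 to 0.363. Eef1a2 probe A was also higher on every day 60 array, with a log2 difference of 0.85 ± 0.22 (adjusted p = 0.152). A lack of overlap in this direction held for 3 of these 5 probes and for 10.2% of all tested probes. The differences were 0.43 ± 0.19 for Thy1 (adjusted p = 0.384) and 0.27 ± 0.16 for Eno2 (adjusted p = 0.502), and these groups overlapped. Eef1a2 probe B was not above background at either age and is given no difference.

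**Figure D3:**
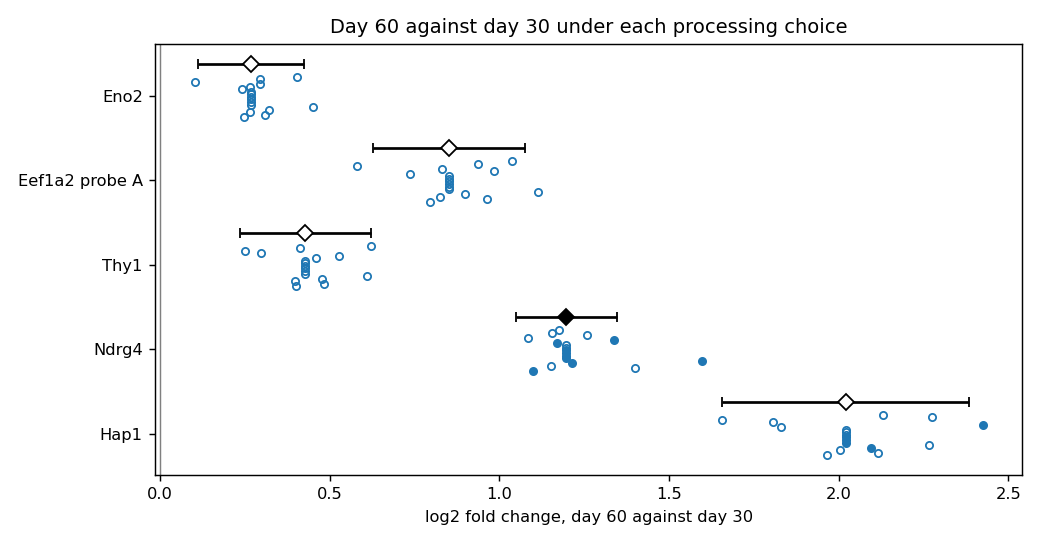
Log2 fold change of the 5 probes above background at day 60 against day 30. Black diamonds with bars are the reported value and its standard error, blue circles are the alternatives in processing, and filled symbols have an adjusted p under 0.05. Every value lies above 0, and filled symbols occur for Ndrg4 and Hap1.

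Markers of the neuroendocrine tumor cells were also highest at day 90, but by day 60 Chgb had risen further than most of these genes. Against the controls, Hap1 was 9.48-fold higher at day 60. The day 60 folds were only 1.42 for Eno2, 1.49 for Thy1, 1.79 for Eef1a2 probe A and 1.92 for Ndrg4. Chgb, which encodes the granule protein chromogranin B, read 229, 96.6 and 314 in the controls, 308, 3686 and 381 at day 30 and 4374, 1777 and 1755 at day 60. At day 90 it read 39135, 41563 and 31368. Day 30 mouse 2 and day 60 mouse 1, which were highest for Chgb, were also highest of their groups for Thy1, Hap1 and Eef1a2 probe A. Tph1, which encodes the tryptophan hydroxylase of peripheral serotonin synthesis, was highest in the same 2 mice, at 919.6 and 2216, and Chga, chromogranin A, at 816 and 2112. Other probes departed from this order. Ndrg4 was lowest in mouse 1 at day 60, and at day 30 Eno2 was highest in mouse 3 and Eef1a2 probe B in mouse 1. The part of the amount of tumor in each sample in these differences was not tested.

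Gene lists drawn from textbook roles were examined beside the 5 genes. They were drawn up with earlier results of these data known and are no independent evidence, and at day 90 most of the increases in them lay in the lists of neuron and neuroendocrine markers. In limma, 10.4% of all tested probes were called higher and 9.17% lower in this comparison, with a median log2 difference of -0.04. All 5 neuroendocrine genes tested rose, with a median of 3.62 (4 or 5 genes with any 1 array left out). The largest rise was that of the granin Scg2, 6.29 ± 0.15 (adjusted p = 1.82e-07). The prohormone convertase Pcsk2 followed at 3.70, the amine-forming decarboxylase Ddc at 3.62 and the vesicle protein Syp at 3.27. Further probes of Pcsk2 were at 2.40 and 2.75. The summed signal of the 5 genes on this list was 889 to 1031 in the controls and 16538 to 21912 at day 90.

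Of the enteric neuron markers 9 of 14 named genes passed the filter, 6 rose and none fell, with a median of 1.01 (0.95 with the 3 genes that were not above background in the controls set to their bound). Gap43, a protein of growing axons, rose by 3.09 ± 0.20 (adjusted p = 2.27e-05) and the microtubule regulator Stmn3 by 2.67 ± 0.16. The synaptic vesicle protein Syn1 rose by 2.39 ± 0.14 and the RNA-binding protein Elavl3 by 1.16 ± 0.12. Another Elavl3 probe, named only from supplementary tables of the study, was at 2.51 ± 0.15. Other cytoskeletal markers had smaller differences or missed the threshold. The neurofilament Nefm, not above background in the controls, was at least 1.34-fold higher. It passed the filter only through the day 90 arrays, so it is given without a p-value, although it counts among the 6. Tubb3, neuronal beta-tubulin, was at -0.14 ± 0.13 (adjusted p = 0.510) and Nefl, another neurofilament, was not above background at day 90, while Prph, Map2, Calb2, Nos1 and Rbfox3 did not pass the filter. The summed signal of the 14 neuron markers was 1243 to 1405 in the controls and 3239 to 3775 at day 90, and 8 of them were above 100 on at least 1 day 90 array against 7 in the controls.

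The other cell types that carry or surround these genes were examined in the same way. None of the 5 T cell genes with a named probe passed the filter. Cd3e, a subunit of the T cell receptor complex, was at 96.5 ± 28.4 in the controls and 100.1 ± 13.5 at day 90 (SD, n = 3), and Cd247, Cd8b1 and Ptprc had means below 100 in both groups. Their summed signal was 356 to 408 in the controls and 361 to 454 at day 90. Of 7 fibroblast genes, with a median of 0.24, the collagens Col3a1 and Col1a2 rose by 1.23 ± 0.21 (adjusted p = 0.00412) and 1.05 ± 0.25 (adjusted p = 0.0181), and Col6a1 fell by 0.67 on the log2 scale. That fall was lost without control mouse 2, day 90 mouse 2 or day 90 mouse 3. The summed fibroblast signal was 8119.8 to 8489 in the controls and 7275 to 11585 at day 90. Both this sum and Thy1 were highest of their group in mouse 1 at day 90, where Thy1 differed by only 1.08-fold between mice, and in mouse 2 at day 30. In the controls and at day 60 the sum was highest in mouse 2 and Thy1 in mouse 1. None of the 4 glial genes passed the filter, and their sums overlapped, at 307 to 332 and 283 to 338. None of the 3 endothelial genes passed the test in limma (1 had an unadjusted p under 0.05) or by the methods' t-test, with Emcn at -0.46 and Pecam1 at -0.29 and a median of -0.29, although 1 fell without control mouse 3 or day 90 mouse 1. The epithelial keratin Krt19 fell by 1.14, 1 of 3 antral epithelial genes to change (2 without control mouse 2), with a median of -0.47. The part of other cell types in the values of the 5 genes was not tested.

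Beside Eno2, the other enzymes of glycolysis gave a mixed picture. Of 16 glycolytic genes, 1 rose and 3 fell, with a median of 0.08. The muscle enolase Eno3 fell by 1.55 (SE 0.29, adjusted p = 0.00579), from 367 ± 167 in the controls to 117 ± 9.30 at day 90, and the ubiquitous Eno1 was at -0.49 ± 0.19 (adjusted p = 0.106). The lactate dehydrogenase subunits Ldhb and Ldha fell by 2.54 and 0.97, and Pfkm, a phosphofructokinase, rose by 0.51 (adjusted p = 0.0365). A second, dim probe of Pfkm was at -0.08. No glycolytic gene rose when any control array, day 90 mouse 2 or day 90 mouse 3 was left out, and the falls then numbered 1 without day 90 mouse 2 and 2 without day 90 mouse 3.

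The translation elongation factors were mixed as well. Of 8 genes, with a median of -0.06 (-0.08 with Eef1a1 at its bound), 1 rose, Eef2 by 0.39 (adjusted p = 0.0422), and 3 fell, the mitochondrial factors Tufm by 0.78 and Gfm2 by 0.66 and Eif5a by 0.45. The other probes of Eef2 were at -0.25 and -0.10, and its rise was lost with any 1 array left out. The falls were then 2 or 3. The named probe of the close relative Eef1a1 was dim, not above background in the controls and at 105 ± 11.4 at day 90 (adjusted p = 0.0809).

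Among genes of the huntingtin and Hap1 network 2 of 8 rose, with a list median of 0.02. Klc1, a light chain of the kinesin motor with which Hap1 interacts, rose by 1.79 ± 0.14 (adjusted p = 6.74e-05). Ntrk2, the receptor for brain-derived neurotrophic factor, was not above background in the controls and at least 1.31-fold higher. It passed the filter only through the day 90 arrays and is given without a p-value, although it counts among the 2. The huntingtin gene Htt itself was at -0.31 ± 0.14 (adjusted p = 0.151). Of 7 genes that encode surface proteins related to Thy1 or found with it, 2 rose, with a list median of 0.05 (1 without day 90 mouse 2). They were the neuronal adhesion molecule Cntn1 and the prion protein gene Prnp, at 0.82 ± 0.18 (adjusted p = 0.0122). Cntn1 was at least 1.42-fold higher, as it was not above background in the controls. It too passed the filter only through the day 90 arrays and is given without a p-value. Ndrg1, Ndrg2 and Ndrg3 were not analysed here. Between day 30 and day 60 none of the 66 listed genes tested passed in limma after adjustment, while 23 had an unadjusted p under 0.05, 15 of them higher and 8 lower, where 13.1% of all tested probes had such a p. Of the 5 neuroendocrine genes 4 were among the higher and Ptprn2, at -0.26, among the lower.

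**Figure D4:**
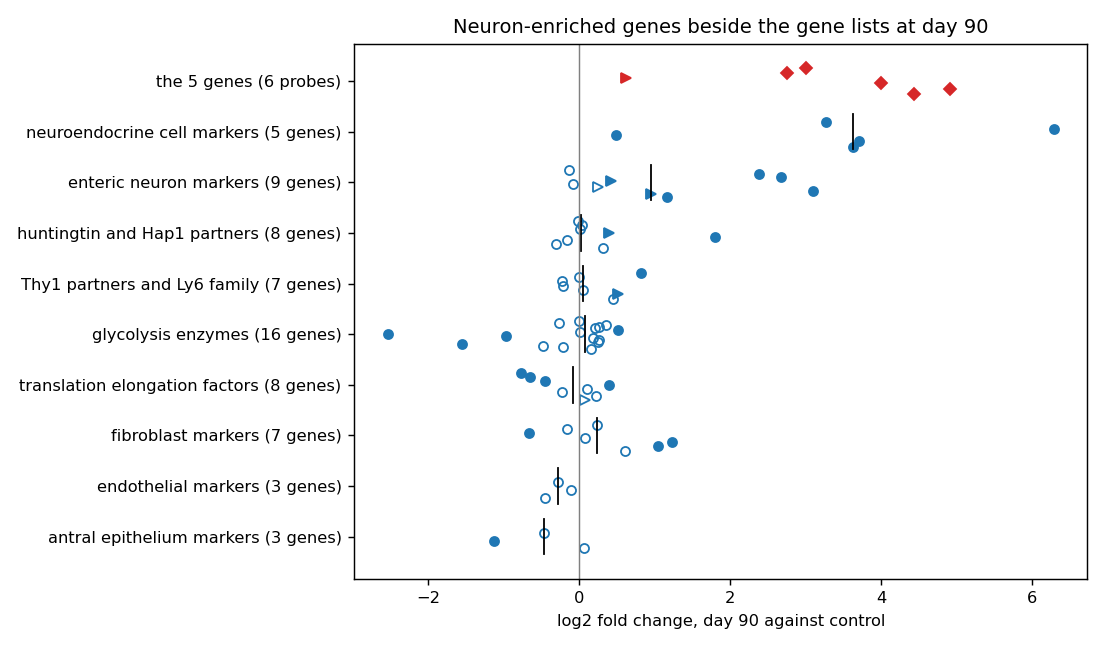
Log2 fold change at day 90 against control for the 6 probes (red diamonds, chosen for this difference) and for genes of 9 lists, 1 probe per gene. Filled blue symbols have an adjusted p under 0.05, triangles are lower bounds for probes not above background in the controls, and black bars are list medians with bounds in place. The neuroendocrine and enteric neuron lists have medians of 3.62 and 0.95, and the glycolysis and elongation factor lists lie around 0.

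The genes whose course over the 12 arrays was most like each of the 5 were looked up by the root mean square difference between log2 values, each set to its own control mean, among 5451 other named genes. Eno2 had the closest neighbors. They were Gprasp1, at 0.13, then Pacsin1 at 0.17 and Inpp5f at 0.17, against a median of 1.57 over all genes compared. The nearest to Ndrg4 were Prss12 (0.30), Trpc4 (0.33) and C4a (0.34). Near Eef1a2 were Rufy3 (0.37) and the peptide hormone gene Cck (0.37). Thy1 was closest to Eef1a2 (0.37), Serpina3n (0.40) and the protease gene Pappa2 (0.40). Hap1 had no neighbor as near. Resp18, an endocrine granule protein, was at 0.58, Dlk1 at 0.62 and Gad2 at 0.67, and all 3 also had log2 differences of 2.18 or more at day 60. Among the 5 genes themselves, over 10 pairs, Thy1 and Eef1a2 were nearest and Hap1 and Ndrg4 farthest apart, at 1.79. Many of these neighbors carry names taken from tables of genes higher in tumors, and the measure says nothing of shared control.

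Array medians before normalization lay between 92.1 (day 30 mouse 3) and 127.1 (control mouse 3). The controls, at 118.7 or more, were above every day 60 and day 90 array, at 112.2 or less. Correlations between arrays of the same group ranged from 0.933, in the controls, to 0.982, at day 90. The labels name separate mice. The number of arrays limits the precision.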

How the data were processed

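Total RNA from the antrum of 12 mice was labelled and hybridised to Illumina Sentrix Mouse-6 arrays. For 46116 probes the authors deposited intensity values in a non-normalized and in a normalized form, each as 1 table. The methods of the study name vsn and quantile normalization. They do not say which of them made the normalized table, which served as an alternative only. The non-normalized intensities still contained background, and they were corrected by normexp (offset of 50), quantile normalized and put on the log2 scale in limma 3.58.1 (R 4.3.3). Owing to the offset, the fold changes of dim probes are underestimated. The 22067 probes above 100 on at least 3 arrays were kept. Where none of the 3 arrays of a group exceeded 100, the probe counted as not above background there, and its fold was computed against 100 and written as "at least".

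Gene names are not part of the files. In 9832 probe IDs a number was taken for the NCBI gene number and looked up in a RefSeq gene table (GRCm38.p6), and 225 more probes were named from supplementary tables of the study. This reading was inferred, and for all 87 probes that could be named both ways it gave the same gene. Thy1, Hap1 and Eef1a2 probe B were named from those tables, which list genes higher in tumors, and the other 3 probes by number. Probes named only from the tables were not counted in any gene list. A gene with several probes was represented by the one with the highest mean.

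Each pair of groups was fitted by itself with lmFit and eBayes (3 against 3 arrays, threshold of 0.05 after Benjamini-Hochberg adjustment). Simulated data of 22067 probes took their means from all 12 arrays and their spread from the 4 groups pooled. Changes were added to the simulated day 60 arrays, which were tested against day 30. In this test 75% of changes of 1 on the log2 scale and 99% of changes of 3 were recovered. The genes and the 12 gene lists were chosen with earlier results of these data known. The named genes are all probes of the 5 genes, their measured paralogues, up to 4 changed genes per list with the largest differences (or 2 with the smallest p), Chgb, Chga and Tph1, and the 3 genes most like each of the 5. Some genes that this rule or a list would name are not reported here. A few others are named as members of a list that did not pass, as further probes or as lesser changes, and were chosen after their values were seen. No slide was given, so a slide block was not run. As alternatives, other background corrections, scalings and filters were tried, then the deposited normalized values, a single model for the 4 groups, a trended robust variance, the methods' t-test, the mouse number as a block, and the omission of each array in turn.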

Additional observations from a re-analysis of the deposited data

Results flagged for a closer look

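The departure of Ndrg4 from the controls differed between 2 ages. It was higher at day 60 than at day 30 by 1.20 on the log2 scale in a direct test of the 2 groups (limma with Benjamini-Hochberg adjustment, adjusted p = 0.0226), with the 3 day 60 mice above the 3 day 30 mice. The call was not firm and was lost in 9 of 17 alternatives.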

How the results depend on the processing

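The differences of the 6 probes at day 90 against control kept their direction in every alternative run, and the 5 probes other than Eef1a2 probe B were at least 2-fold higher throughout. Eef1a2 probe B dropped out with a minimum signal of 200. At day 60 against day 30 the 5 probes other than Eef1a2 probe B kept their direction, but the number of calls moved. Of the 6 probes 1 was called, and of all tested probes 79. An offset of 16, scaling to the 75th percentile, a minimum signal of 200 and the methods' t-test each gave 0 and 0. Cyclic loess gave 2 and 161, no filter 2 and 228, and 1 fit of all 4 groups 2 and 173. The deposited normalized values gave 38 calls over all probes and a trended and robust spread 208. Leaving out 1 array gave 0 to 2 and 0 to 229. Each array moved this count by over 1.5 times, with 229 calls without day 30 mouse 1, 228 without day 30 mouse 2, 7 without day 60 mouse 1 and 0 without day 30 mouse 3, day 60 mouse 2 or day 60 mouse 3. At an unadjusted p under 0.05 there were 2895 probes. At day 90 against control 4314 probes were called, 1644 by the methods' t-test after adjustment and 2417 to 4720 with 1 array left out, the low end being without day 90 mouse 2 (2635 without mouse 3). Over all lists 19 genes rose and 8 fell, and the rises included genes that passed the filter only through the day 90 arrays. The falls were 2 by the methods' t-test and 4 to 11 with 1 array left out (4 without day 90 mouse 2 and 5 without mouse 3). The causes were not tested. Scaling to the 75th percentile moved the median of all probes at day 90 against control from -0.04 to -0.11.

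The mouse numbers did not pair the samples. Deviations of same-numbered mice correlated at -0.33, -0.24 and 0.07 for day 60 with day 30 and at -0.33, -0.13 and -0.18 for day 90 with control. With the replicate number as a block 0 of the 6 probes and 0 of all probes were called at day 60 against day 30.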
